A study of Mus musculus with 6 samples.

Results

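H3K27ac, the acetylation of lysine 27 of histone H3 that marks active promoters and enhancers, was examined over 9 genes of Wnt signalling in B16 melanoma cells. The genes are Lef1, Tcf7, Tcf7l1 and Tcf7l2, which code for the DNA-binding factors of the pathway, Ctnnb1, which codes for their partner β-catenin, and the feedback genes Axin2, Nkd1, Znrf3 and Rnf43. The members are the 173 regions, of 182956 in all, that overlapped 1 of these genes or the 20 kb on either side of it. A region is the union of the peaks of the 4 libraries that share at least 1 bp.

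When Wnt ligands bind their receptors, β-catenin is no longer degraded, enters the nucleus and turns TCF/LEF factors from repressors into activators. Axin2, Nkd1, Znrf3 and Rnf43 are induced in turn and dampen the signal, Axin2 as a scaffold for β-catenin degradation and Znrf3 and Rnf43 as ubiquitin ligases that remove Frizzled receptors. In melanocytes the pathway is known to activate Mitf, the master regulator of pigment genes, and Lef1 is known to act together with MITF.

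B16 F10 is an established mouse melanoma line, here without any genetic change or drug. The cells were seeded at 100 cells per cm2 and on day 5 were sorted by their side scatter into a low pigment (LP) and a high pigment (HP) population, with 2 H3K27ac libraries of each. The authors called peaks against IgG libraries made from unsorted cells, 1 for each replicate number. The sources do not say whether the replicates came from separate cultures. The limma p-values below therefore measure only the spread between these samples, pooled over all regions tested. The 1 line is the only model used, and in bulk libraries fewer cells with the mark and less of the mark per cell cannot be told apart.

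The LP libraries held 11467942 and 15353176 fragments and the HP libraries 11483830 and 14254904. The level given below is the scaled pileup, the number of fragments over the summit of a peak divided by the fragments of its library and multiplied by 1000000. Where a library had no peak its list holds no value. The lowest scaled pileup of a called peak was 0.351 to 0.436 in the 4 libraries, 5 or 6 fragments. An absent peak therefore means only that the peak caller's threshold was not reached. The labels call the cells Melanocytes, and 7 of 8 melanocyte markers had a peak at their start in all 4 libraries, with Mc1r in 3. Of 16 markers of other cell types, 1 had a peak at its start in all 4 libraries, the endothelial Pecam1, with scaled pileups of 1.13 and 1.24 in LP against 2.00 and 2.39 in HP. All 4 fibroblast genes had one in 1 to 3 libraries, Col1a1 and Pdgfra in 3, as did 2 of 6 T cell genes and 1 of 3 keratinocyte genes. The other 8, Ptprc and Cdh5 among them, had none in any library. Of all protein-coding genes, 47.3% had a peak at a start in all 4 libraries and 27.7% in none. The part of other cells in the results was not tested. The mean fragment length, 167 and 217 bp in LP against 184 and 192 bp in HP, also differed between libraries, and its part in the pileups was not tested.

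Lef1 had no H3K27ac peak at its start. Lef1 (ENSMUSG00000027985.14) lies on the plus strand of chromosome 3 of mm10, from 131110471 to 131224356, and GENCODE lists 8 transcripts with 5 starts for it. No library had a peak within 1 kb of any of these starts. Within 3 kb, LP replicate 2 had a single peak with a scaled pileup of 0.456, or 7 fragments, 2.6 kb downstream of the start of a processed transcript, and the other 3 libraries had none. Of the 21951 protein-coding genes, 12.9% had a peak within 3 kb of a start in exactly 1 library, 27.7% in none and 47.3% in all 4.

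RefSeq gives 4 promoters of Lef1, each of 300 bases, 250 before a start and 50 after it, and no peak of any library touched any of them. The most upstream is shown as an example of a promoter without a peak. It lies on the plus strand of mm10 (GRCm38) at chr3:131110047-131110346 and holds 67.3% G or C. Capitals in this and the following sequences would mark the TCF/LEF letters CTTTGAT or CTTTGAA, or the E-box letters CACGTG or TCATGTG that MITF is known to bind, on either strand. None of the 4 occurred here, whereas the promoter at chr3:131156044-131156343 held CACGTG once. Each occurs in 3.73%, 5.14%, 7.15% and 3.77%, in this order, of the 32851 RefSeq promoters.
Lef1 promoter: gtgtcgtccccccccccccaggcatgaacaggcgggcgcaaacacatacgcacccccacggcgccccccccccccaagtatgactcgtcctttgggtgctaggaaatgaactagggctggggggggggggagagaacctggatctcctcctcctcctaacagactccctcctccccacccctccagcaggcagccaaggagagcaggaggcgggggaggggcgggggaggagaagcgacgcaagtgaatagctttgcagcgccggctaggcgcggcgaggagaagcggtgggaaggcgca

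The rest of the Lef1 window held 6 more regions, all in introns and each called in 1 library. LP replicate 1 had 0 of the 7 Lef1 regions, LP replicate 2 had 4, HP replicate 1 had 1 and HP replicate 2 had 2. No region was therefore shared by any pair of libraries, within or between the populations. The highest scaled pileups were 1.04 in LP replicate 2, 52.1 kb into the gene, and 1.04 in HP replicate 1, at 104.2 kb. The HP replicate 2 peak 13.9 kb into the gene, at 0.351 the weakest, was the only Lef1 region with TCF/LEF letters near its summit. Its 201 bases around the summit, chr3:131124270-131124470 on the plus strand, are shown for this match, in capitals.
Lef1 intron, HP replicate 2 only: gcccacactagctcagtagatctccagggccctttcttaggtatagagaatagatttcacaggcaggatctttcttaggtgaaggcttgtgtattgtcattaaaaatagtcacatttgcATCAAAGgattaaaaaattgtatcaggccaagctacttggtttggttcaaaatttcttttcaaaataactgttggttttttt

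The nearest region to the 5′ end of Lef1 that all 4 libraries shared lay 160.8 kb downstream, at the start of Hadh, a gene of fatty acid oxidation, and the nearest one with a peak in both HP and no LP library lay 551.9 kb downstream. HP and LP levels at Lef1 could thus not be compared by limma, and no gene of similar pattern could be named for it. The map of regions by library shows Lef1 with the fewest regions of the TCF/LEF genes.

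**Figure D1:**
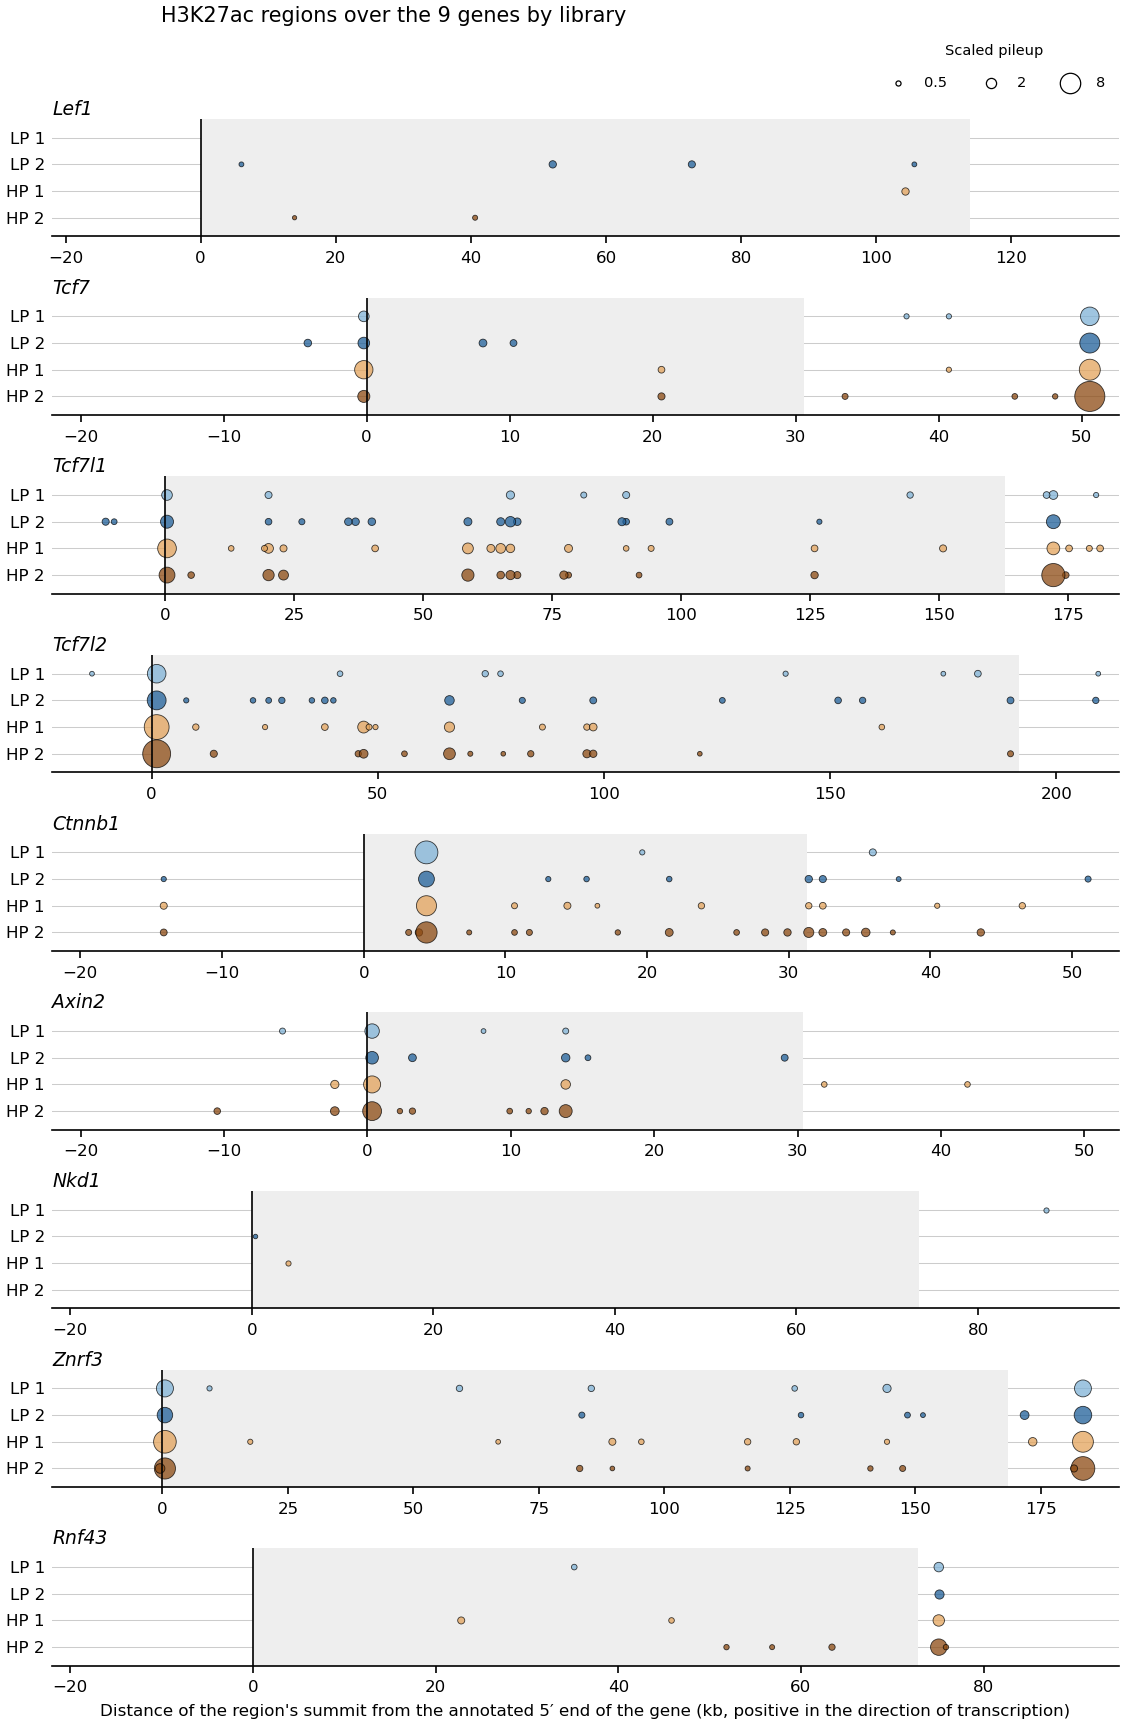
H3K27ac regions over the 9 genes and 20 kb on either side, by distance of the region's summit from the annotated 5′ end of the gene (kb, x axis) in the LP and HP libraries (rows). The area of a circle is the scaled pileup and grey marks the gene. Lef1 and Nkd1 have no position shared by 2 libraries, whereas Tcf7, Tcf7l1, Tcf7l2, Ctnnb1, Axin2 and Znrf3 have large circles at their starts in all 4.

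The other TCF genes had a peak at a start in all 4 libraries. Tcf7l2 (ENSMUSG00000024985.19, chromosome 19, 55741820 to 55933654, plus strand) codes for TCF4, the main TCF factor in many epithelia. Its start region, from 55741204 to 55745389, had scaled pileups of 6.63 and 6.84 in LP against 11.8 and 14.9 in HP. Both HP values were above both LP values, and the log2 ratio of HP to LP was 0.98 (95% interval -0.08 to 2.05, limma adjusted p = 0.159). The interval includes 0, so a difference was not shown at this number of replicates.

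Tcf7l1 (ENSMUSG00000055799.13, chromosome 6, 72626378 to 72789254, minus strand) codes for TCF3, known mainly as a repressor. The region at its start, from 72788054 to 72789428, had scaled pileups of 2.18 and 3.26 in LP against 6.71 and 4.84 in HP. The groups did not overlap, and the log2 ratio was 1.10 (95% interval 0.03 to 2.16, limma adjusted p = 0.130). Tcf7 (ENSMUSG00000000782.15, chromosome 11, 52252371 to 52283014, minus strand) codes for TCF1, best known from T cells. Its start region, from 52282501 to 52284813, had scaled pileups of 2.18 and 2.61 in LP against 6.44 and 2.81 in HP. HP replicate 2 was close to LP replicate 2. Within replicate 1 the log2 ratio was 1.56 and within replicate 2 it was 0.11 (limma over all 4, 0.84, adjusted p = 0.210).

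Ctnnb1 (ENSMUSG00000006932.17, chromosome 9, 120929216 to 120960507, plus strand) had the highest start region in LP replicate 1 and the lowest log2 ratio of the 10 promoter regions tested. Its region from 120933235 to 120936252, within 3 kb of 6 of its 15 starts, had scaled pileups of 10.0 and 4.82 in LP against 7.75 and 8.70 in HP. The groups overlapped, with LP replicate 1 above both HP libraries. The log2 ratio was 0.24 (95% interval -0.82 to 1.30, limma adjusted p = 0.679), with -0.37 in replicate 1 and 0.85 in replicate 2. Without LP replicate 2 it was -0.29, and with the mean of the summit pileups in place of the highest it was -0.59.

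Of the feedback genes, Axin2 and Znrf3 had a start region in all 4 libraries. Axin2 (ENSMUSG00000000142.15, chromosome 11, 108920349 to 108950783, plus strand) is the most widely used readout of Wnt activity. At its start, from 108920000 to 108922314, scaled pileups were 4.01 and 3.06 in LP against 5.57 and 6.80 in HP. At the start of Znrf3 (ENSMUSG00000041961.14, chromosome 11, 5276324 to 5444847, minus strand), from 5443752 to 5445088, they were 5.58 and 4.62 in LP against 9.84 and 8.56 in HP. Both genes had the HP values above the LP values, with log2 ratios of 0.81 (95% interval -0.25 to 1.88, limma adjusted p = 0.220) for Axin2 and 0.85 (-0.21 to 1.92, limma adjusted p = 0.204) for Znrf3.

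Nkd1 and Rnf43 resembled Lef1 in having no shared peak at a protein-coding start. Nkd1 (ENSMUSG00000031661.12, chromosome 8, 88521354 to 88594884, plus strand), whose product binds Dishevelled, had 3 regions, each in 1 library and with 6 fragments at the summit. The peak nearest to its 5′ end was called in LP replicate 2 with a scaled pileup of 0.391, and HP replicate 2 had no peak in the whole window of 113.5 kb. Rnf43 (ENSMUSG00000034177.15, chromosome 11, 87662722 to 87735539, plus strand) had 6 regions within the gene, each in 1 library, at 0.491 to 0.958. The nearest of them to the 5′ end lay 22.7 kb downstream, and no peak came within 3 kb of the 4 starts near the 5′ end. The region from 87736739 to 87738073 was in all 4 libraries, at 1.74 and 1.63 in LP against 2.53 and 5.19 in HP. It counts here among own starts only because it reaches within 3 kb of the start of a processed transcript of Rnf43, and it lies at the start of the neighbouring gene Supt4a, a transcription elongation factor.

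The windows also held 3 shared regions at starts of neighbouring genes. The start of Skp1a near Tcf7 had scaled pileups of 6.63 and 7.69 in LP against 8.45 and 17.4 in HP. The start of Kremen1 near Znrf3, which codes for a receptor of the Wnt inhibitor DKK1, had 5.49 and 5.93 in LP against 8.36 and 10.8 in HP. That of Tgoln1 near Tcf7l1 had 1.48 and 3.71 in LP against 3.13 and 10.3 in HP, so that the groups overlapped there. Their log2 ratios were 0.76, 0.74 and 1.28, with limma adjusted p-values of 0.241, 0.255 and 0.0980.

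Non-promoter regions, those farther than 3 kb from any start, were called in all 4 libraries at 3 places, all in introns. In Axin2, 13.8 kb downstream of the start (108933429 to 108934326), scaled pileups were 0.698 and 1.37 in LP against 1.74 and 3.23 in HP. In Tcf7l1, 19993 bp into the gene (72768204 to 72769817), they were 0.959 and 0.847 in LP against 1.83 and 2.46 in HP. At both places HP was above LP in every pairing of libraries, with log2 ratios of 1.28 (95% interval 0.21 to 2.34, limma adjusted p = 0.0977) and 1.23 (0.17 to 2.30, limma adjusted p = 0.105). A second region of Tcf7l1, 66.9 kb into the gene, had 1.31 and 2.08 in LP against 1.39 and 1.61 in HP. There LP and HP overlapped and the log2 ratio was -0.14 (95% interval -1.20 to 0.93, limma adjusted p = 0.810), the only value below 0 among the 13 regions.

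The 201 bases around the summits of the first pair are shown because they were the introns with the largest ratios. They lie on the plus strand of mm10 at chr11:108934075-108934275 and chr6:72769161-72769361, and neither holds any of the 4 motifs.
Axin2 intron: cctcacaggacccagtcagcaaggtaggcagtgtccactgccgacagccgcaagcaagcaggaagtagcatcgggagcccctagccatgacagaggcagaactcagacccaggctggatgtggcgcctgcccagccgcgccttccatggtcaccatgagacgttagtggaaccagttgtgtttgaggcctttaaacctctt
Tcf7l1 intron: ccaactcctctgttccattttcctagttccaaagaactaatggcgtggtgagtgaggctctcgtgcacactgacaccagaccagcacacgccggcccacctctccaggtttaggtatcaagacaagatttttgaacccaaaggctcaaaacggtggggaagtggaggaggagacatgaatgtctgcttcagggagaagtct

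**Figure D2:**
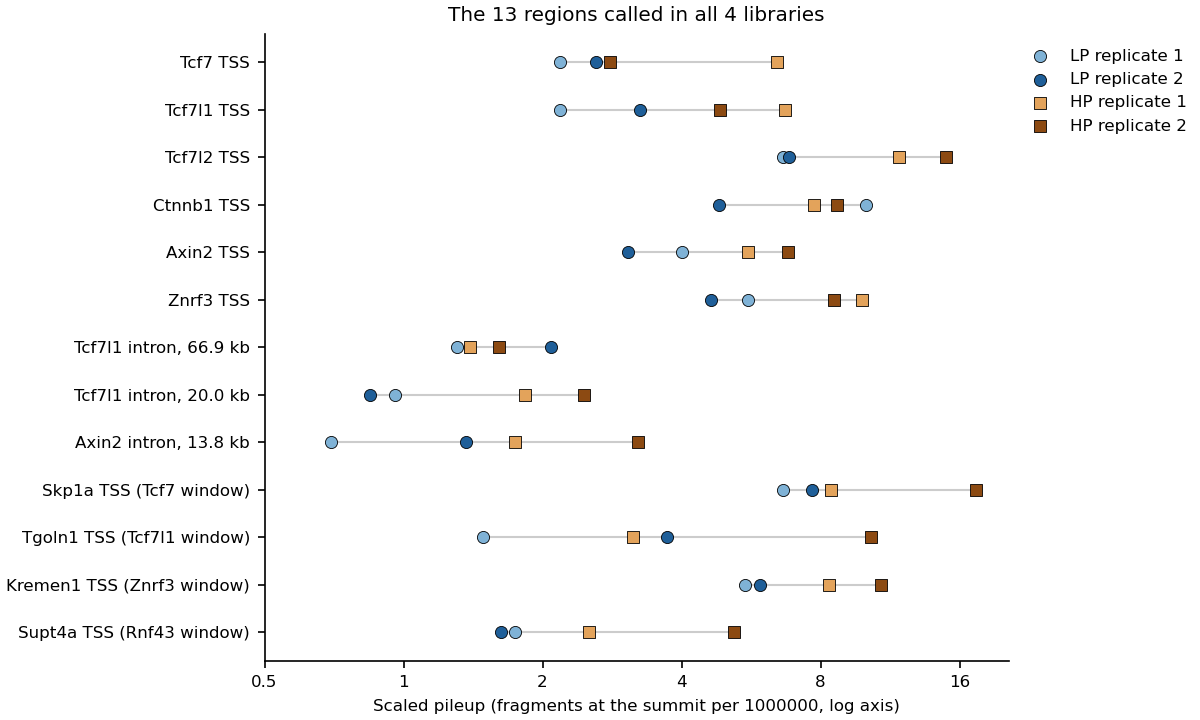
Scaled pileup (fragments at the summit per 1000000, log axis) of the 13 regions called in all 4 libraries, with circles for LP and squares for HP. Both squares lie to the right of both circles in 10 regions (76.9%, against 74.8% of all regions called in all 4 libraries). The exceptions are the start of Ctnnb1, the Tcf7l1 intron at 66.9 kb and the start of Tgoln1.

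Over all 13 shared regions, 0 were higher in HP at a limma adjusted p of at most 0.05, against 4.01% of the 12084 regions tested, and 0 were lower. At an unadjusted p under 0.05, 5 were higher in limma, against 36.2% of all regions, and 0 were lower. Both HP pileups exceeded both LP pileups in 10 of the 13 (76.9%), close to the 74.8% over all regions. limma gave every region the same standard error, 0.54 on the log2 scale, and adjusted p-values ran from 0.0977 to 0.810. Without HP replicate 1, 5 of the 13 passed the adjusted threshold, as did 6930 of the 12084 regions. With 2 libraries in each population, the smallest two-sided p of an exact permutation test is 0.333.

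The median log2 ratio was 0.84 over the 10 promoter regions of the Wnt genes and 0.90 over all 10064 promoter regions. It was 1.23 over their 3 non-promoter regions and 1.06 over all 2020 such regions. Promoters of the Wnt genes had a median of 0.71 in replicate 1 and 1.01 in replicate 2, and all promoters had 0.53 and 1.29. The 13 ratios lay within the spread of all regions, as the plot of ratios shows. With each library centred on its median, the median of the 10 promoter regions was -0.17 and that of the 3 non-promoter regions 0.22. Of the 13 ratios, 5 were then above 0 in place of 12. The start regions of Tcf7, Tcf7l2, Ctnnb1, Axin2 and Znrf3 then had ratios below 0, between -0.029 and -0.77, whereas Tcf7l1 had 0.085.

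**Figure D3:**
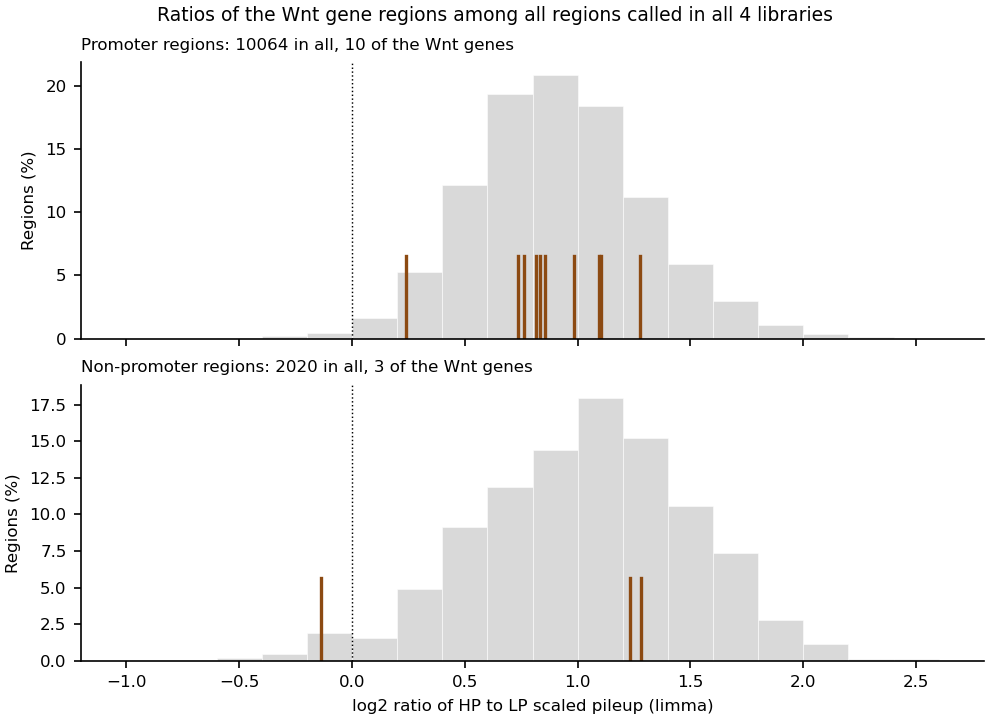
Share of all regions called in all 4 libraries (%, grey bars) by log2 ratio of HP to LP scaled pileup from limma, for promoter and non-promoter regions. Brown lines mark the 10 and 3 regions of the Wnt genes. The promoter lines run from 0.24 to 1.28 around the median of 0.90, and of the non-promoter lines the one at -0.14 is at the low edge.

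Regions with a peak in both libraries of 1 population and in neither of the other were all on the HP side. Both HP libraries and no LP library had a peak in 10 of the 173 regions (5.78%), against 3.94% of all regions. The opposite pattern, a peak in both LP libraries and no HP library, was found in 0 of the 173, against 0.249% of all regions. Of the 118 non-promoter regions 9 were called in HP only (7.63%), against 3.58% of all non-promoter regions, and the tenth lay upstream of Axin2. Depth differed too, with 11467942 fragments in LP against 11483830 in HP in replicate 1 and 15353176 against 14254904 in replicate 2, and its part in these counts was not tested. The count was 6 with peaks of a q-value of at most 0.001 and 4 when peaks were joined only at 50% of both.

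The Axin2 region lay 2.3 kb upstream of the start, from 108917921 to 108918358, with scaled pileups of 1.31 and 1.47 in HP, 15 and 21 fragments. The highest level was in an intron of Tcf7l2, 46.9 kb into the gene (55788490 to 55789183), with 2.70 and 1.47, or 31 and 21 fragments. A second one in Tcf7l2, at 96.2 kb, had 0.784 and 1.26. The summit windows of the Axin2 region and the first of Tcf7l2, chr11:108917971-108918171 and chr19:55788601-55788801 on the plus strand, are shown as the HP peaks with the most fragments in the weaker replicate.
Axin2 upstream, HP only: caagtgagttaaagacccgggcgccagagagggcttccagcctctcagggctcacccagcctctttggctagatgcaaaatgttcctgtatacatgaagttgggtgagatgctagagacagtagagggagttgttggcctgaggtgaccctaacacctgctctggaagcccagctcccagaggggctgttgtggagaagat
Tcf7l2 intron, HP only: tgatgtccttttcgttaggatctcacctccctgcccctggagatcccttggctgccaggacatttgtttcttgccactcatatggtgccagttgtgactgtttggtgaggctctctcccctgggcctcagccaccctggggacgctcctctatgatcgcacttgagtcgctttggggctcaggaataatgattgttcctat

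Tcf7l1 held 3 HP-only regions, all in introns. They had scaled pileups of 0.958 and 1.89 at 22.9 kb, 1.22 and 0.702 at 78.2 kb and 0.871 and 1.05 at 125.9 kb. The last, chr6:72663253-72663453 on the plus strand, was the only one of the 10 with any of the 4 motifs, TCATGTG, and is shown for it. An intron of Tcf7 had 0.871 and 0.982 and one of Ctnnb1 had 0.697 and 0.631.
Tcf7l1 intron, HP only: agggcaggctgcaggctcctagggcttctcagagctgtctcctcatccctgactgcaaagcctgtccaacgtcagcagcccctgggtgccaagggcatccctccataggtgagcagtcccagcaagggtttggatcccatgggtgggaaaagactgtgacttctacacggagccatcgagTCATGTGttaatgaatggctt

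The weakest HP-only peaks were in Znrf3, at 116.6 kb with 0.784 and 0.491 and at 89.6 kb with 0.958 and 0.421. HP replicate 2 had only 7 and 6 fragments at these summits. Over the 10 regions HP replicate 1 had a median scaled pileup of 0.914 and HP replicate 2 one of 1.02, beside 0.958 and 1.05 over all 7204 HP-only regions. Lef1, Nkd1 and Rnf43 had no HP-only region in their windows.

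A further 7 regions (4.05%, against 2.94% of all regions) lacked a peak only in LP replicate 1, 2 in Tcf7l1, 2 in Tcf7l2 and 3 at Ctnnb1. The highest was 58.7 kb into Tcf7l1, with 1.24 in LP replicate 2 and 2.26 and 2.88 in HP. In Tcf7l2, at 65.9 kb, the values were 1.76 in LP replicate 2 and 2.00 and 2.67 in HP. The only LP value, that of LP replicate 2, was below both HP values in 4 of the 7 and between them in the other 3. This split was not counted over all regions that lacked a peak only in LP replicate 1. It therefore shows nothing particular to these genes. In the opposite direction, 1 region in an intron of Tcf7l1, at 89.4 kb, had a peak in both LP libraries (0.959 and 0.847) and HP replicate 1 (0.610) but not in HP replicate 2. This pattern made up 0.578% of the 173 regions and 0.0399% of all.

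**Figure D4:**
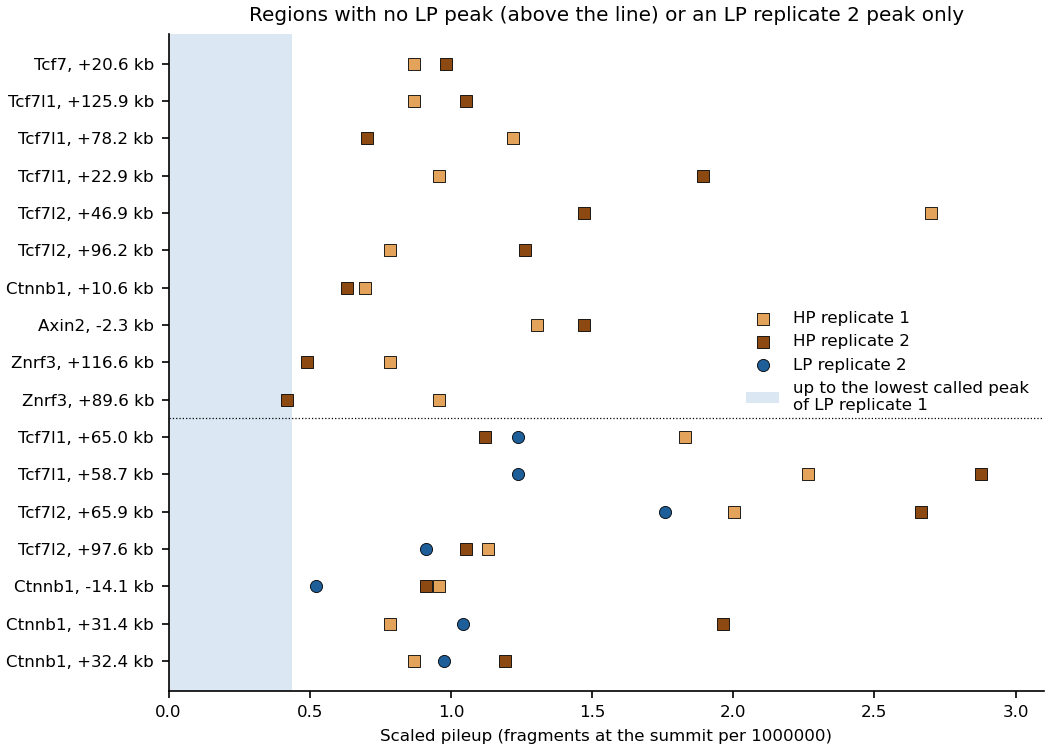
Scaled pileup (fragments at the summit per 1000000) of the 10 regions with peaks in both HP libraries and no LP library, above the dotted line, and of the 7 that lacked a peak only in LP replicate 1, below it, named by gene and distance from its 5′ end. The shaded band ends at the lowest called peak of LP replicate 1, 0.436 (0.391 in LP replicate 2), and the HP-only peaks reach from 0.421 to 2.70.

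Most regions of the Wnt genes were weak and not shared. All 4 libraries had a peak in 13 regions (7.51%, against 6.6% of all regions), and 135 (78.0%, against 81.7%) were called in 1 library only. Of the latter, 23 and 39 were from LP and 31 and 42 from HP, with 5 to 25 fragments at the summit and a median of 9. Counted by library, peaks at promoters were found in 16 and 27 regions in LP and in 22 and 33 in HP, so that the populations overlapped. All promoter regions with a peak numbered 17320 and 23853 in LP against 23027 and 27936 in HP, which overlap too. Non-promoter peaks were found in 23 and 38 regions in LP and 43 in each HP library. Over the whole lists the non-promoter counts were 38111 and 39042 in LP against 36144 and 42112 in HP, which overlap. Promoters included, Ctnnb1 had peaks in 3 and 9 regions in LP against 10 and 18 in HP, some near starts of its neighbour Ulk4. Znrf3 (7 and 7 against 10 and 9) and Rnf43 (2 and 1 against 3 and 5) were split likewise. The rest of the 9 genes were not, and the share of all genes with such a split was not counted. Of the 29 regions of Ctnnb1, 23 were called in 1 library only. The whole lists held 57942 and 66580 peaks in LP against 64759 and 71529 in HP, which overlap.

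The share of regions with TCF/LEF letters at these genes was near that of all regions. CTTTGAT or CTTTGAA was found within 100 bp of the summit in 11 of the 173 regions (6.36%) and in 6.91% of the 182798 regions whose sequence was read. All 11 regions were called in 1 library only, 3 in LP replicate 1, 1 in LP replicate 2, 4 in HP replicate 1 and 3 in HP replicate 2. None of the 13 shared and none of the 10 HP-only regions held them. Over all regions the share was 1.91% in shared regions, with a median of 67.7% G or C, and 5.81% in HP-only regions, with 51.7%. CACGTG or TCATGTG was found in 13 of the 173 (7.51%) and in 6.33% of all.

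In the pattern over the 4 libraries, the start region of Axin2 was closest to those of Tshz1 and Zadh2, which share a region, and Vsig10. The Euclidean distance of the log2 scaled pileups was 0.102 for the shared region and 0.117 for Vsig10, among 10136 other protein-coding genes with a start region in all 4 libraries. Tshz1 and Zadh2 had 4.27 and 3.06 in LP against 5.57 and 6.59 in HP.

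Other genes of the pathway were placed by role. All 11 genes of signal transduction and β-catenin degradation had a start region in all 4 libraries, as did 10 of 11 nuclear cofactors and 11 of 15 receptors. So did 3 of 25 ligands and agonists (Wnt7b, Wnt9a and Wls) and 2 of 13 secreted or membrane inhibitors (Notum and Kremen1). Of 7 further targets 5 did, among them Ccnd1, Myc and Mitf, and Sp5 and Cd44 did not. Over all 21951 protein-coding genes, 10137 had a start region in all 4 libraries, and 47.3% had a peak at a start in each library. Of these 42 start regions, limma called 1 higher in HP and 0 lower at the adjusted threshold (4.01% over all tested regions). At an unadjusted p under 0.05 limma called 12 higher (28.6%, against 36.2% of all regions), and 32 had both HP values above both LP values (76.2%, against 74.8%). The start of Kremen1 counts both among these 42 and among the 13 shared regions above.

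The called region was at Wls, whose product carries Wnt ligands to the cell surface. Its scaled pileups were 0.785 and 1.56 in LP against 2.26 and 6.87 in HP, and the log2 ratio was 1.83 (limma adjusted p = 0.0420). The call was not kept with the replicate block (limma adjusted p = 0.0552) or with the mean of the summit pileups (limma adjusted p = 0.115). Nor was it kept with centred libraries (log2 ratio 0.82) or quantile normalization (0.80). Leaving out 1 library gave log2 ratios of 1.34 without LP replicate 1 and 2.33 without LP replicate 2. Without HP replicate 1 the ratio was 2.63, and without HP replicate 2 it was 1.03. The 42 regions had a median log2 ratio of 0.78, and their lowest was 0.25 at Lrp6, the Wnt co-receptor, which had 38.7 and 16.3 in LP against 28.9 and 31.0 in HP. By role the medians ran from 0.50 for the inhibitors and 0.63 for signal transduction to 1.24 for the further targets. Among the 5 targets, Myc had the highest, 1.62, Ccnd1, which codes for cyclin D1, had 1.24, and Mitf had the lowest, 0.83, with 1.83 and 2.28 in LP against 3.22 and 4.07 in HP (limma adjusted p = 0.214).

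**Figure D5:**
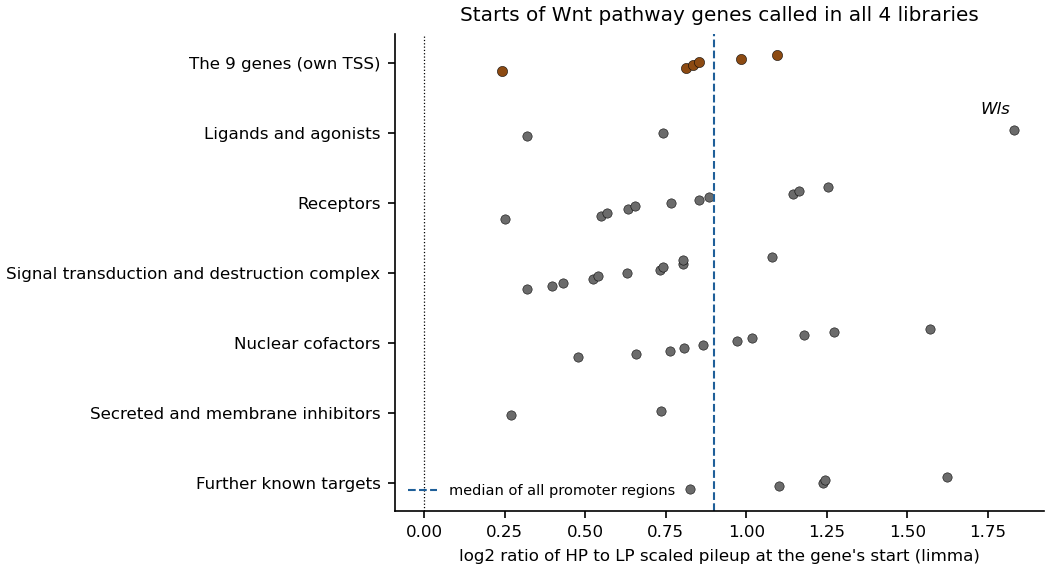
log2 ratio of HP to LP scaled pileup (limma, x axis) at the starts of Wnt pathway genes called in all 4 libraries, by role, with the 6 start regions of the 9 genes in brown. Each point is 1 gene, points are spread vertically for visibility, and the dashed line is the median of all promoter regions, 0.90. All points lie above 0 without centring of the libraries, and the 6 brown points lie between 0.24 and 1.10.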

How the data were processed

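H3K27ac ChIP-seq libraries of sorted LP and HP B16 F10 cells were compared, 2 replicates each. The authors trimmed the reads with Trimmomatic 0.33, aligned them to mm10 with Bowtie2 2.5.1 and ran MACS 3.0.0b1 on each library for narrow peaks at a q-value of 0.05, with the equally numbered IgG library as control. The deposited pileup is a signal, the whole number of fragments over a summit, not scaled for depth. The deposited fold enrichment is a ratio to the local background, as the authors' peak caller gave it, and was not compared between libraries. The deposited −log10 p-values were not used, and the deposited −log10 q-values served only for stricter peak sets.

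Pileups were divided by the fragments of the library and multiplied by 1000000, and the highest summit of a library in a region was its value. The model of limma 3.58.1 (R 4.3.3) was fitted to log2 values of the 12084 regions that every library shared, with no replicate block and no pseudocount, with Benjamini-Hochberg adjustment over all of them. As limma estimated infinite prior degrees of freedom, all regions share 1 variance. The study's DiffBind analysis needs alignments, which were not used here. Replicate numbers share an IgG control, and the log2 ratio of replicate 2 to 1 in LP correlated with that in HP at 0.0153 across regions. GENCODE M21 on GRCm38, the assembly of mm10, gave genes and starts, with a promoter as 3 kb on either side of any start. Sequences were read from RefSeq's GRCm38 with samtools 1.23.1 and pysam 0.24.0, and tables were made with Python 3.11.15 and pandas 2.3.3. All 9 genes were matched by symbol.

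The genes, gene lists and tests were chosen with earlier results of these data known. Named regions were those at a member's own start, those in all 4 libraries, and those in both libraries of 1 population and none of the other. The merging and the limma step were tested on simulated data. Alternatives were stricter q-values, 50% overlap, the block, centring, quantile normalization, mean summits, other windows and starts, and leaving out each library.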

Additional observations from a re-analysis of the deposited data

How the results depend on the processing

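With 2 libraries a group and summits of few fragments, the ratios have wide intervals, and an absent peak is not an absent mark. No alternative but 1 gave a Wnt gene region past the adjusted threshold of limma: the count was 0 to 5 when 1 library was left out, 5 being without HP replicate 1, and 0 regions were lower throughout. With the replicate block it was 0, with 5 at an unadjusted p under 0.05, and over all regions the block moved the count of limma calls from 485 to 88. Among the 13 regions and the 42 starts of other pathway genes, it changed only the call of Wls. Without LP replicate 1, LP replicate 2 or HP replicate 2, 0 of all 12084 regions passed in limma, with 1083, 1722 and 2015 higher at an unadjusted p under 0.05.

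The promoter median of 0.84 was -0.17 with centred libraries and -0.052 with quantile normalization, and the non-promoter median of 1.23 was 0.22 and 0.19. Leaving out 1 library gave 0.63 to 0.94 for promoters, the lowest without HP replicate 2, and 0.79 to 1.45 for non-promoter regions, the lowest without LP replicate 1. Centring turned the ratios at the starts of Tcf7 (-0.18), Tcf7l2 (-0.029), Ctnnb1 (-0.77), Axin2 (-0.20) and Znrf3 (-0.16), and near Tcf7 (-0.25, Skp1a) and Znrf3 (-0.28, Kremen1), and quantile normalization gave -0.15 at Tcf7, -0.55 at Ctnnb1, -0.13 at Axin2, -0.036 at Znrf3, -0.069 at Skp1a and -0.17 at Kremen1. These scalings set the centre or distribution of the libraries equal by construction. The ratio at Ctnnb1 was -0.59 with mean summits. Leaving out 1 library gave -0.29 (without LP replicate 2) to 0.77 at Ctnnb1 and -0.48 to 0.20 (without LP replicate 2) at the Tcf7l1 intron at 66.9 kb. The causes of these were not tested.

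The 10 HP-only regions became 6 at a q-value of at most 0.001 and 4 at 50% overlap of both peaks. Leaving out 1 library gave 10 to 52 (17 without LP replicate 2, 41 without HP replicate 2, 52 without HP replicate 1) and 0 to 39 LP-only regions (39 without LP replicate 1, 23 without LP replicate 2, 1 without HP replicate 1), since a single list then stands for its population. At 50% overlap 5 of the 13 named regions had no region in all 4 libraries and gave no value. The other 64 alternative values of counts and medians kept their direction and stayed within 1.5 times or 1 SD.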
